A study of Mus musculus with 12 samples.

Results

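The mitochondrial genome of the mouse carries 37 genes, and all of them are listed among the 56748 genes of the count table, where their symbols start with mt-. The members were chosen by that symbol alone. They comprise 13 protein-coding genes, 2 ribosomal RNA genes (mt-Rnr1 and mt-Rnr2) and 22 transfer RNA genes. Their read counts were examined in 3 libraries of Sf3b1 K700E/+ and 3 libraries of Sf3b1 +/+ G1E-ER4 cells after 24 h of estradiol. G1E-ER4 is a murine proerythroblast line without endogenous GATA1, a master regulator of red cell development. Both genotypes carry a GATA1-estrogen receptor fusion that becomes active with estradiol and drives erythroid differentiation, and both are isogenic lines made from G1E-ER4 by CRISPR-Cas9 editing. Sf3b1 encodes a core component of the splicing machinery, and K700E is a change of its protein carried on 1 of the alleles in Sf3b1 K700E/+ cells. Each genotype is represented by 1 clone, so that genotype and clone cannot be told apart. Which culture gave which library is not stated in the labels, so that p-values reflect only how far the 3 libraries of a genotype lie apart, which may be technical. Cells collected at 0 h were not analysed here.

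The mitochondrial DNA encodes core subunits of the respiratory chain and of the ATP synthase, together with the RNAs needed to translate them inside the organelle. It is read from both strands into long transcripts, named for the heavy and the light strand, that hold many genes in a row. Transfer RNAs lie between most of the messenger and ribosomal RNAs, and their excision releases the RNAs on either side. In erythroblasts the organelle also supplies heme, and it is cleared when red cells mature. None of the 37 genes has an intron that the spliceosome would remove.

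The depth of the libraries was 44045337 to 50077827 counts in Sf3b1 K700E/+ and 38785471 to 40702174 in Sf3b1 +/+ cells. Levels are given in CPM, the read count of a gene scaled to library size, after scaling by the trimmed mean of M-values (TMM). Sf3b1 itself was at 754 ± 12.0 CPM (SD, n = 3) in Sf3b1 K700E/+ and 747 ± 13.9 CPM in Sf3b1 +/+ cells, which does not check the point mutation. Markers of the erythroid lineage were detected for 15 of 15 genes in the table, of which 4 were higher and 2 lower in Sf3b1 K700E/+ cells at an adjusted p under 0.05, or 40% beside the 44.4% called among all 12547 genes tested. The summed level of 18 granulocyte and macrophage genes was 1.43 to 2.23 CPM in Sf3b1 K700E/+ and 14.0 to 41.3 CPM in Sf3b1 +/+ libraries, and Lyz2, for example, had 0, 1 and 0 counts against 166, 419 and 450. Calls on this list are not counted, since most of its tested genes passed the filter on low counts only through the Sf3b1 +/+ libraries. Of this list, Elane, Ctsg, Camp, Ngp and S100a8 had no read in any library. The 8 genes of mast cells, basophils and eosinophils were at a summed 1.02 to 3.50 CPM against 10.4 to 35.4 CPM, with Epx at 0, 0 and 0 counts against 18, 68 and 55, and Mcpt8 and Prss34 had no read. The megakaryocyte list was at a summed 10.1 to 19.3 CPM against 17.4 to 28.6 CPM, with no call among 4 tested genes. Of the lymphoid list, Ptprcap had 12, 8 and 5 counts against 135, 110 and 123, and Cd3e, Ms4a1 and Nkg7 had none. The part of these cell markers in the mitochondrial results was not tested.

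The share of all reads that were counted on the mitochondrial genes was smaller in Sf3b1 K700E/+ cells. This share holds hardly any counts of mt-Co2, mt-Atp6, mt-Co3, mt-Nd3 and mt-Nd4l, whose sequence is nearly all shared with copies elsewhere (described below). It was 1.15, 1.31 and 1.07% of all counts in the 3 Sf3b1 K700E/+ libraries and 1.86, 1.62 and 1.93% in the 3 Sf3b1 +/+ libraries, and the genotypes did not overlap. The means were 1.18 ± 0.121% and 1.80 ± 0.163% (SD, n = 3), a difference of -0.63 percentage points. The exact two-sided permutation test gave p = 0.1, the smallest value that 3 against 3 libraries allow. The difference was -0.37 percentage points without mt-Nd2, with the same exact p = 0.1, so that other members also contributed to it. In bulk RNA, a smaller number of transcripts per cell and a smaller number of cells that hold them cannot be told apart.

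Most of these reads came from protein-coding genes, with 457777 to 580900 counts in each library of Sf3b1 K700E/+ cells and 650332 to 761844 in each of Sf3b1 +/+ cells. The 2 ribosomal RNAs together held 14371 to 18102 counts against 9215 to 12200, which is the opposite order. The 22 transfer RNAs together held 214 to 297 counts against 151 to 197. Libraries were made from poly(A)-selected RNA. All members, among them the ribosomal and transfer RNAs, were therefore measured only as far as they passed this selection.

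Of the 37 members, 16 passed the filter on low counts and were tested, comprising 10 protein-coding genes, both ribosomal RNAs and 4 transfer RNAs. At an adjusted p under 0.05, 8 of the 16 were called, 3 higher and 5 lower in Sf3b1 K700E/+ cells. Of these, mt-Tq passed the filter only through the Sf3b1 +/+ libraries. Over all 12547 genes tested the percentage called was 44.4, with 21.3 higher and 23.1 lower, so the share of members called is near the background. What the members show is therefore the size and the direction of each difference. DEGs, which also need an absolute log2 fold change over 1, numbered 4, against 10.3% of all genes tested. The 8 called genes were also the 8 whose libraries did not overlap between the genotypes, a pattern seen in 54.3% of all genes tested. The median log2 fold change of the 16 was -0.17, and of the 10 protein-coding genes -0.40, beside -0.01 over all genes tested.

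**Figure D1:**
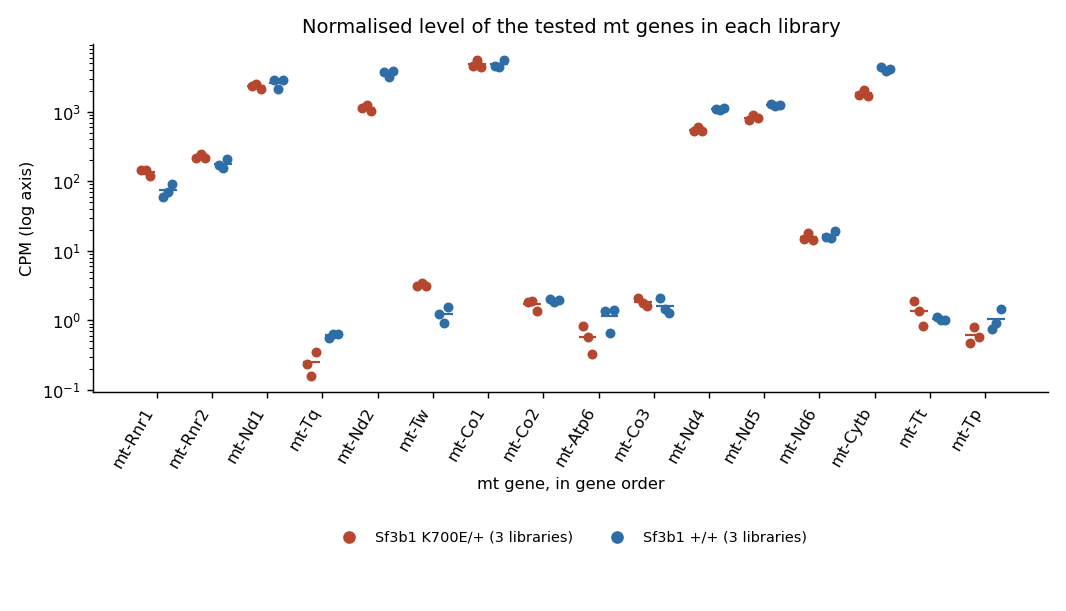
Normalised level (CPM, log axis) of the 16 tested mitochondrial genes in gene order, with 1 point per library and a line at the mean of each genotype (n = 3). The points of the genotypes are apart for mt-Rnr1, mt-Rnr2, mt-Tq, mt-Nd2, mt-Tw, mt-Nd4, mt-Nd5 and mt-Cytb, and overlap for mt-Nd1 and mt-Co1.

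Subunits of complex I, the NADH dehydrogenase at the entry of the respiratory chain, are encoded by 7 of the members. mt-Nd2 had the largest fall. It was at 1122, 1245 and 1021 CPM in Sf3b1 K700E/+ libraries (56233, 55930 and 43685 counts) and at 3737, 3170 and 3874 CPM in Sf3b1 +/+ libraries (148272, 129933 and 157500 counts). The lowest Sf3b1 +/+ library lay far above the highest Sf3b1 K700E/+ library. The level was 3.18-fold lower in Sf3b1 K700E/+ cells (log2 fold change -1.67 ± 0.10, SE, edgeR adjusted p = 5.08e-06). When each library was left out in turn, the log2 fold change of mt-Nd2 stayed between -1.74 and -1.60.

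mt-Nd4 fell by a smaller factor, from 1092, 1045 and 1141 CPM in Sf3b1 +/+ libraries to 529, 606 and 529 CPM in Sf3b1 K700E/+ libraries. This was 1.97-fold lower (log2 fold change -0.98 ± 0.07, SE, edgeR adjusted p = 1.40e-05). mt-Nd5 was at 1290, 1217 and 1268 CPM in Sf3b1 +/+ and 772, 903 and 803 CPM in Sf3b1 K700E/+ libraries, 1.52-fold lower (log2 fold change -0.61 ± 0.07, SE, edgeR adjusted p = 0.000175). Both genes kept the genotypes apart in every library.

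The gene mt-Nd1, which lies upstream of mt-Nd2 on the heavy-strand transcript, did not pass the test. Its levels were 2373, 2535 and 2155 CPM in Sf3b1 K700E/+ and 2847, 2141 and 2855 CPM in Sf3b1 +/+ libraries, and the genotypes overlapped (log2 fold change -0.15 ± 0.12, SE, edgeR adjusted p = 0.324). mt-Nd6, the only protein-coding gene on the light-strand transcript, was at 14.9, 17.9 and 14.3 CPM against 16.003, 15.2 and 19.1 CPM (log2 fold change -0.10 ± 0.12, SE, edgeR adjusted p = 0.551). It lies between mt-Nd5 and mt-Cytb on the other strand, and the strand setting of the counting is not given in the sources used here. The last complex I genes, mt-Nd3 and mt-Nd4l, had at most 15 counts in a library and were not tested. mt-Nd3 had 15, 8 and 9 counts in Sf3b1 K700E/+ and 11, 9 and 6 in Sf3b1 +/+ libraries, and mt-Nd4l had 2, 0 and 3 against 9, 4 and 5.

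Complex III has a single subunit from the mitochondrial genome, cytochrome b, encoded by mt-Cytb. It was at 1757, 2040 and 1707 CPM in Sf3b1 K700E/+ libraries (88056, 91638 and 73020 counts) and at 4404, 3845 and 4108 CPM in Sf3b1 +/+ libraries (174765, 157588 and 166989 counts). No library of a genotype came near those of the other. mt-Cytb was 2.24-fold lower in Sf3b1 K700E/+ cells (log2 fold change -1.17 ± 0.09, SE, edgeR adjusted p = 1.57e-05).

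Complex IV, the cytochrome c oxidase, takes its catalytic core from mt-Co1, mt-Co2 and mt-Co3, and none of these passed the test. mt-Co1, the member with the most counts, was at 4547, 5582 and 4470 CPM in Sf3b1 K700E/+ and 4579, 4430 and 5471 CPM in Sf3b1 +/+ libraries. The ranges nearly coincide, at a log2 fold change of 0.01 ± 0.11 (SE, edgeR adjusted p = 0.942). mt-Co2 had 92, 84 and 59 counts in Sf3b1 K700E/+ and 81, 74 and 79 in Sf3b1 +/+ libraries (log2 fold change -0.18 ± 0.18, SE, edgeR adjusted p = 0.428). mt-Co3 had 104, 79 and 69 counts against 83, 60 and 52 (log2 fold change 0.18 ± 0.22, SE, edgeR adjusted p = 0.542). Nearly all of the sequence of mt-Co2 and mt-Co3 is shared with copies elsewhere (described below). Whether their few counts follow the messenger RNA present was not tested.

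The membrane part of the ATP synthase includes the products of mt-Atp6 and mt-Atp8. mt-Atp6 had 42, 26 and 14 counts in Sf3b1 K700E/+ and 54, 27 and 57 in Sf3b1 +/+ libraries, and the ranges overlapped. Its log2 fold change was -0.95 ± 0.38 (SE, edgeR adjusted p = 0.0685). With the replicate number as a block it became -0.95 ± 0.30 (edgeR adjusted p = 0.0187), and it was called without Sf3b1 K700E/+ replicate 1 (-1.31, adjusted p = 0.0319) and without Sf3b1 +/+ replicate 2 (-1.21, adjusted p = 0.0238). Nearly all of the sequence of mt-Atp6 is also shared with a copy elsewhere (described below). Whether its few counts follow the messenger RNA present was not tested. mt-Atp8 had 0, 8 and 1 counts against 2, 1 and 3 and was not tested.

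The ribosomal RNAs moved opposite to the messenger RNAs that fell. mt-Rnr1, the RNA of the small mitochondrial ribosomal subunit, was at 146, 144 and 121 CPM in Sf3b1 K700E/+ libraries (7330, 6487 and 5160 counts) and 58.8, 70.8 and 92.2 CPM in Sf3b1 +/+ libraries (2332, 2902 and 3748 counts). It was 1.85-fold higher in Sf3b1 K700E/+ cells (log2 fold change 0.89 ± 0.15, SE, edgeR adjusted p = 0.00122). mt-Rnr2, the RNA of the large subunit, was at 215, 247 and 215 CPM against 173, 157 and 208 CPM, a gap much narrower than that of mt-Rnr1. It was 1.26-fold higher (log2 fold change 0.33 ± 0.10, SE, edgeR adjusted p = 0.0285). This call was lost with fewer libraries, where the adjusted p was 0.105 without Sf3b1 K700E/+ replicate 2 (log2 fold change 0.27) and 0.0785 without Sf3b1 +/+ replicate 2 (0.26).

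Within a library, the counts of mt-Rnr1 were 0.680, 0.586 and 0.560 of those of mt-Rnr2 in Sf3b1 K700E/+ cells and 0.339, 0.451 and 0.443 in Sf3b1 +/+ cells. The ribosomal RNAs of the small and the large subunit are neighbours on the heavy-strand transcript, with mt-Tv between them. The log2 ratio differed by 0.57 between the genotypes, without overlap (exact two-sided permutation p = 0.1, the smallest possible). This pair was picked after the values were seen.

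The transfer RNAs are 59 to 75 bases long, which is no longer than a read of 75 bases, and 11 of the 22 had no read in any library. A count of 0 allows up to 3 counts per library, or 0.0599 to 0.0756 CPM, as a limit of counting error only. Another 7 had reads but were not tested. The 4 tested were mt-Tq, mt-Tw, mt-Tt and mt-Tp, all with few counts.

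mt-Tw, the tryptophan transfer RNA, lies directly downstream of mt-Nd2 and moved in the opposite direction. It had 155, 156 and 132 counts (3.09, 3.47 and 3.09 CPM) in Sf3b1 K700E/+ and 49, 38 and 64 counts (1.23, 0.927 and 1.57 CPM) in Sf3b1 +/+ libraries. Every Sf3b1 K700E/+ library was above every Sf3b1 +/+ library, and mt-Tw was 2.58-fold higher (log2 fold change 1.37 ± 0.20, SE, edgeR adjusted p = 0.000593). For each count of mt-Tw there were 362, 357 and 330 counts of mt-Nd2 in Sf3b1 K700E/+ and 2995, 3375 and 2442 in Sf3b1 +/+ libraries, a pair picked after the values were seen. The neighbours share bases in the annotation, and both ends are shown here because a read over this border touches each gene. Capitals mark the 2 bases that the end of mt-Nd2 and the start of mt-Tw have in common, in transcript sequences of GENCODE M21 (GRCm38), written 5′ to 3′ on the heavy-strand transcript of the mitochondrial chromosome.
mt-Nd2 3′ end: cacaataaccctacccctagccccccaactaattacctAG
mt-Tw: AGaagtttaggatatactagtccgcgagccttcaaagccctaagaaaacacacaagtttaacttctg

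mt-Tq, the glutamine transfer RNA, lies on the light-strand transcript between mt-Nd1 and mt-Nd2. It had 12, 7 and 15 counts in Sf3b1 K700E/+ and 22, 26 and 26 in Sf3b1 +/+ libraries, without overlap. It was 2.45-fold lower (log2 fold change -1.29 ± 0.31, SE, edgeR adjusted p = 0.00795). It passed the filter on low counts only through the Sf3b1 +/+ libraries, which had to lie high for it to be tested, so its call adds no support to the counts of lower genes and of DEGs. Its sequence is shown because its last 3 bases, in capitals, lie opposite the end of mt-Ti on the other strand, and without strand the reads of such a stretch cannot be told apart.
mt-Tq: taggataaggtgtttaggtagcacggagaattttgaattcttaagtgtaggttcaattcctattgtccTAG

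The last pair of tested transfer RNAs follows mt-Cytb at the end of the gene order. mt-Tt, for threonine, had 95, 61 and 36 counts in Sf3b1 K700E/+ and 44, 41 and 41 in Sf3b1 +/+ libraries (log2 fold change 0.40 ± 0.28, SE, edgeR adjusted p = 0.279). It was at 0.09 without Sf3b1 K700E/+ replicate 1 and at 0.65 without Sf3b1 K700E/+ replicate 3. mt-Tp, for proline and on the light-strand transcript, had 24, 36 and 25 counts against 30, 37 and 59 (log2 fold change -0.74 ± 0.31, SE, edgeR adjusted p = 0.0764). With the replicate number as a block, mt-Tp was at -0.72 with an adjusted p of 0.0300, and it was called without Sf3b1 +/+ replicate 1 (-0.92, adjusted p = 0.0290), but it moved to -0.42 without Sf3b1 +/+ replicate 3 (adjusted p = 0.305). The ranges of the genotypes overlapped for both genes.

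**Figure D2:**
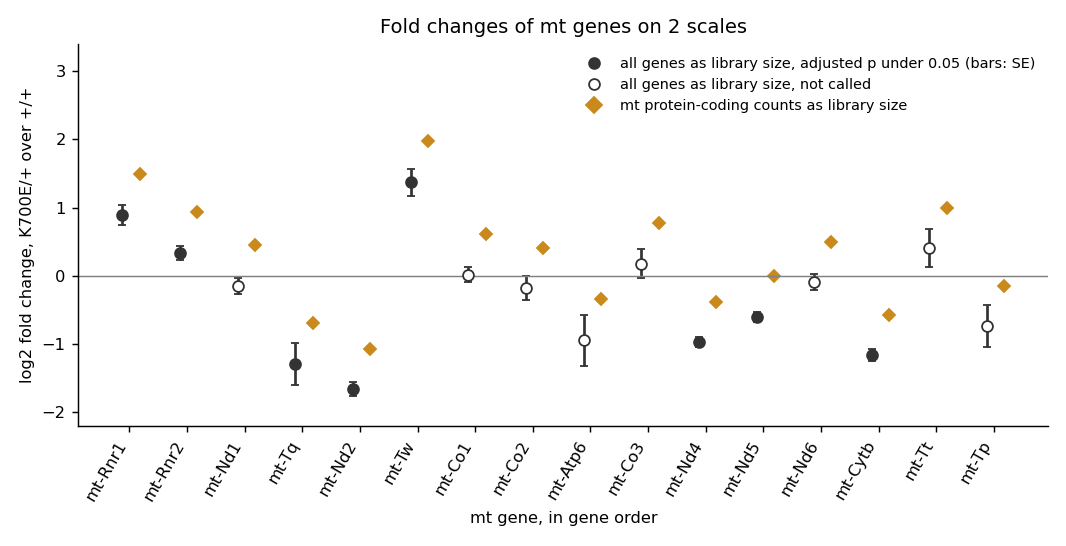
Log2 fold changes of the 16 tested genes in gene order, Sf3b1 K700E/+ over Sf3b1 +/+, with all genes as library size (circles, bars are SE, filled when called) and with the counts of the 13 protein-coding mitochondrial genes as library size (diamonds, no error drawn). mt-Nd2 is lowest on both scales (-1.67 and -1.07) and mt-Tw highest (1.37 and 1.97), while mt-Co1 moves from 0.01 to 0.61.

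Next, the make-up of the protein-coding mitochondrial counts was compared, since a share of this pool does not depend on how the rest of the library was scaled. In this pool mt-Co2, mt-Atp6, mt-Co3, mt-Nd3 and mt-Nd4l held at most 0.0187% each in any library. Nearly all of their sequence is shared with copies outside the mitochondrial genes (described below). Whether the counts match the messenger RNA present was not tested. In Sf3b1 +/+ libraries mt-Nd2 held 20.8, 19.98 and 20.7% of the protein-coding mitochondrial counts, and in Sf3b1 K700E/+ libraries 10.1, 9.63 and 9.54%. mt-Cytb went the same way, from 24.5, 24.2 and 21.9% to 15.8, 15.8 and 15.95%. mt-Co1 held 25.5, 27.9 and 29.2% in Sf3b1 +/+ and 40.9, 43.2 and 41.8% in Sf3b1 K700E/+ libraries, and mt-Nd1 15.8, 13.5 and 15.2% against 21.3, 19.6 and 20.1%. The shares of mt-Nd5 overlapped, at 7.20 ± 0.453% and 7.14 ± 0.311% (SD, n = 3), and mt-Nd4 held 6.25 ± 0.290% against 4.80 ± 0.134%. Of the 10 genes with over 100 counts in all, 8 had no overlap between the genotypes (exact two-sided permutation p = 0.1 each, the smallest possible, 0.125 after Benjamini-Hochberg adjustment over the 10). The exceptions were mt-Nd5 and mt-Atp6. Libraries of the genotypes did not overlap in CPM for 54.3% of all genes tested. Overlap was not counted over all genes on the scale of these shares. In a fit with the protein-coding mitochondrial counts as library size, 11 of the 16 members were called beside 72.4% of all genes tested, so that these calls are read only as a description.

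**Figure D3:**
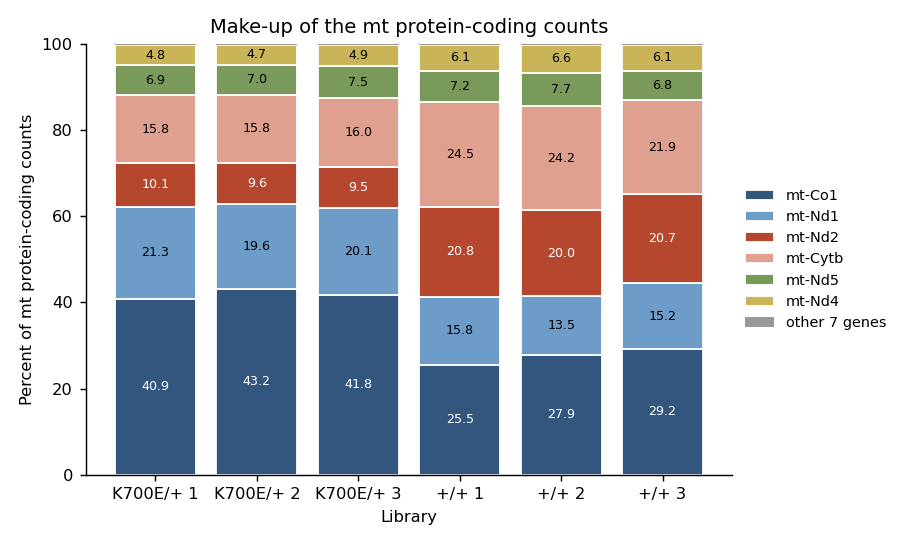
Percent of the counts of the 13 protein-coding mitochondrial genes that each gene held, with 1 bar per library. The share of mt-Nd2 is 9.54 to 10.1% in the Sf3b1 K700E/+ bars and 19.98 to 20.8% in the Sf3b1 +/+ bars, and mt-Co1 takes the largest part of every bar. Hardly any counts fall on mt-Co2, mt-Atp6, mt-Co3, mt-Nd3 and mt-Nd4l, whose sequences are nearly all shared with copies elsewhere.

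Shares of a pool add up to a fixed sum, so a smaller part of mt-Nd2 and mt-Cytb enlarges the others. Ratios to a single member, mt-Nd1, were therefore computed within each library for 11 genes. The log2 ratio of mt-Nd2 to mt-Nd1 was -1.08, -1.03 and -1.08 in Sf3b1 K700E/+ and 0.39, 0.57 and 0.44 in Sf3b1 +/+ libraries, a change of sign and a difference of -1.53. The ratio of mt-Cytb to mt-Nd1 differed by -1.03, that of mt-Nd4 by -0.84 and that of mt-Nd5 by -0.47. With the protein-coding sum as reference these came to -0.57, -0.38 and -0.011, so the difference of mt-Nd5 depends on the reference. That of mt-Rnr1 to mt-Nd1 differed by 1.05 and that of mt-Rnr2 by 0.48. These 6 ratios to mt-Nd1 had no overlap between the genotypes (exact two-sided permutation p = 0.1, the smallest possible, and 0.183 after adjustment over the 11 ratios). Thus 6 of 11 did not overlap, beside 54.3% of all genes tested in CPM, so the count is not read as a result about these genes. The ratios of mt-Co1, mt-Co2, mt-Co3, mt-Atp6 and mt-Nd6 to mt-Nd1 overlapped, with differences from -0.84 for mt-Atp6 to 0.33 for mt-Co3.

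The order of the levels per kilobase changed with genotype. Counts were divided by the full gene length, also where sequence is shared with copies elsewhere (described below). A rank between genes can therefore also depend on how much of each gene can be counted. In Sf3b1 +/+ cells the highest were mt-Cytb (3600 ± 245 CPM per kb, SD, n = 3), mt-Nd2 (3462 ± 360), mt-Co1 (3124 ± 365) and mt-Nd1 (2732 ± 429), and each of these neighbours overlapped the next. In Sf3b1 K700E/+ cells the order was mt-Co1 (3150 ± 402 CPM per kb), mt-Nd1 (2460 ± 199), mt-Cytb (1604 ± 157) and mt-Nd2 (1088 ± 108), with no overlap between neighbours. mt-Nd4 was above mt-Nd5 in Sf3b1 +/+ cells (793 ± 34.9 and 690 ± 20.5 CPM per kb), whereas they overlapped in Sf3b1 K700E/+ cells (403 ± 32.0 and 453 ± 37.4). The ribosomal RNAs followed at 77.4 to 144 CPM per kb, and mt-Nd6 at 30.2 and 32.3.

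The low counts of several members went with their sequence. Of the 75-base windows of mt-Co2, mt-Atp6, mt-Co3, mt-Nd3 and mt-Nd4l, 97.8 to 99.9% also occur in another annotated transcript, in each case a pseudogene, which is a copy outside the mitochondrial genes. These 5 genes were at 0.124 to 2.82 CPM per kb (genotype means). Fewer than 10% of windows are shared in mt-Nd1, mt-Nd2, mt-Nd5, mt-Nd6 and mt-Cytb, which were at 30.2 to 3600 CPM per kb. mt-Nd4 and mt-Co1, with 61.5 and 39.8% of windows shared, were at 403 to 793 and 3124 to 3150 CPM per kb. The low end of the genes with few shared windows is mt-Nd6. The next lowest of them is mt-Nd5, at 453 CPM per kb in Sf3b1 K700E/+ cells, where mt-Nd4 was at 403 and the libraries overlapped. mt-Atp8 had at most 8 counts in a library but no window shared with another annotated transcript. Copies outside annotated transcripts were not searched, and a splicing event that names mt-Atp8 with Gm10925 was marked as an exact repeat. The gene of mt-Atp8 overlaps mt-Atp6, whose reads can touch both. Counting of reads that match several places is not given in the sources used here, and its part in these low counts was not tested.

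**Figure D4:**
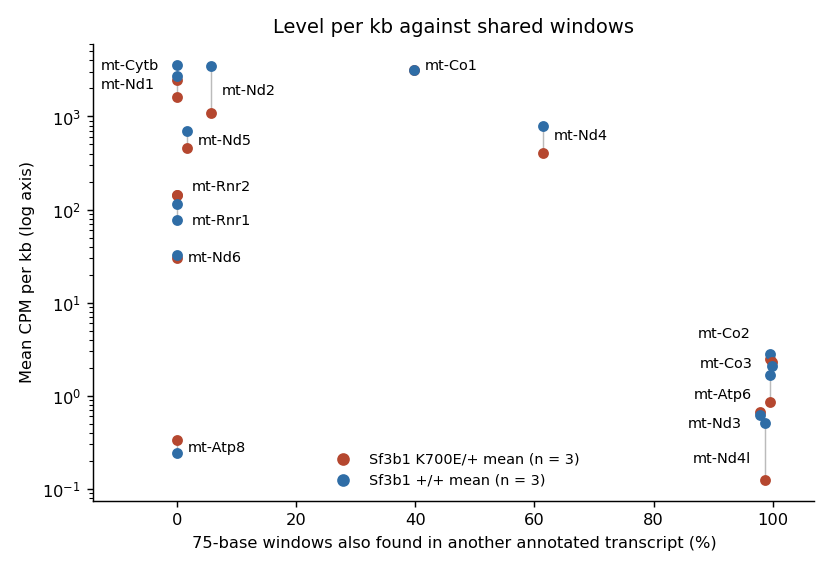
Mean level (CPM per kb, log axis) of the 13 protein-coding and 2 ribosomal RNA genes against the percent of their 75-base windows that occur exactly in another annotated transcript, with a point per genotype (n = 3). The 5 genes with 97.8 to 99.9% of windows shared lie at 0.124 to 2.82 CPM per kb, and mt-Atp8 is low without shared windows.

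How alike these copies are is shown by the start of mt-Nd3 and of its pseudogene Gm28438, which differ at 1 base of 345 compared. The difference falls in the stretch printed here and is in capitals, and a read from the compared bases that misses it has nothing to tell its origin. Bases 1 to 75 are written 5′ to 3′ from the GENCODE M21 transcripts (GRCm38).
mt-Nd3: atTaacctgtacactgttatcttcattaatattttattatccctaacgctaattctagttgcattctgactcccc
Gm28438: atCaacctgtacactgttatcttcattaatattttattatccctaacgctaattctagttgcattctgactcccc

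Of 13 pseudogene names listed, 10 were at least 95.8% identical to a mitochondrial gene, while Gm11808, Gm28660 and Gm29215 were not copies of any. Of the 9 listed names that were tested, 2 were called, both of them copies and lower in Sf3b1 K700E/+ cells. This is 22.2% beside 44.4% of all genes tested, so the count is not read as a result about the copies. Gm10925, identical to mt-Atp6, had 60, 63 and 40 counts against 125, 71 and 145 (log2 fold change -1.25 ± 0.28, SE, edgeR adjusted p = 0.00616), beside -0.95 for mt-Atp6. Gm28439, identical to part of mt-Nd4, had 14, 10 and 4 counts against 28, 19 and 23 (log2 fold change -1.50 ± 0.37, SE, edgeR adjusted p = 0.00925), beside -0.98 for mt-Nd4, and it was tested only through the Sf3b1 +/+ libraries, where it lay high. Reads of these copies and of the mitochondrial genes cannot be told apart where the sequences are the same, so the values of each pair are uncertain. The other copies with at least 10 counts in all were Gm10222 and Gm13339, which were not tested, and Gm13340, Gm13341, Gm28437, Gm28438, Gm28661 and Gm29216, none of which was called. Adding the counts of all 13 listed names to those of the mitochondrial genes left the difference in their share of all counts at -0.63 percentage points. The names hold few counts, so this sum could hardly move: the share of Sf3b1 K700E/+ replicate 1 went from 1.150 to 1.152%. Gm11808, which is no copy, had the most of these counts (4338). Reads that match several places, if left out of counting, are in neither sum.

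Among the 19323 splicing events assembled from the same libraries, 3 named a mitochondrial gene. They named mt-Atp8 and mt-Atp6 with Gm10925, mt-Co3 with Gm28437, and mt-Nd4l with Gm10222. All 3 were marked in the event table as exact repeats with no single place in the genome, and they were not tested.

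Nuclear genes that serve the mitochondrial genome were then examined in 10 lists. Of 169 tested genes on these lists 63 were called, 34 higher and 29 lower, which is 37.3% beside 44.4% of all genes tested. Their median log2 fold change was 0.02. On single lists the share called lay between 9.09% (mitochondrial transcription) and 50% (mitochondrial DNA replication and maintenance). Over all genes tested, 21.3% were higher and 23.1% lower, and the calls on each list are read only beside these shares. The polymerase and helicase genes that copy mitochondrial DNA, with the enzymes that supply its nucleotides, had 5 of 18 tested genes higher and 4 lower (median log2 fold change 0.12). Dna2, a nuclease and helicase, was lower (log2 fold change -0.86 ± 0.08, SE, edgeR adjusted p = 4.11e-05), and Twnk, the replicative helicase of mitochondria, was higher (0.61 ± 0.06, adjusted p = 7.03e-05). Tk2 and Dguok, the mitochondrial kinases for deoxynucleosides, were lower (-0.58 and -0.72). With the replicate block, 15 of these genes were called. Over all genes, the number called moved between 4414 and 7134 across the alternatives, from 5569 in the main fit. Counts of calls under alternatives, for this list and those below, are therefore not read as traits of a list.

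The machinery of mitochondrial transcription showed little. Of 11 tested genes 1 was lower, the RNA polymerase Polrmt (log2 fold change -0.18 ± 0.06, SE, edgeR adjusted p = 0.0475), and its call was lost in 8 of 13 alternatives. It had 34.7 ± 0.198 CPM in Sf3b1 K700E/+ and 39.3 ± 1.77 CPM in Sf3b1 +/+ cells (SD, n = 3). No gene of this list was called without any of the Sf3b1 K700E/+ libraries or without Sf3b1 +/+ replicate 2, and 2 were called with the block or without Sf3b1 +/+ replicate 1. The termination factors Mterf3, Mterf4 and Mterf2 had log2 fold changes of 0.16, 0.16 and -0.25 and were not called, although Mterf3 was called with the block (adjusted p = 0.0442) and without Sf3b1 +/+ replicate 1 (adjusted p = 0.0224).

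Genes that cut and modify mitochondrial RNA had the highest median of the lists, at 0.19, with 13 of 33 tested genes higher and 3 lower. The share called was 48.5%, near the 44.4% of all genes tested. Mrm1, which methylates the large ribosomal RNA, was higher (log2 fold change 0.99 ± 0.12, SE, edgeR adjusted p = 0.000228), as were Trnt1, which adds the CCA end to transfer RNAs (0.80 ± 0.09), and Trmu, which modifies transfer RNAs (0.61 ± 0.08). Ptcd1, a pentatricopeptide repeat protein that acts on mitochondrial RNA, was lower (-0.88 ± 0.07, adjusted p = 1.58e-05), at 23.3 ± 0.718 CPM against 42.8 ± 1.61 CPM (SD, n = 3).

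Among 9 genes for the stability and decay of mitochondrial messenger RNA, 3 were higher and none lower (33.3% called, 44.4% over all genes). These were the ribonuclease Rexo2 (log2 fold change 0.46 ± 0.06, SE, edgeR adjusted p = 0.000280), Lrpprc, which stabilises messenger RNAs in the organelle (0.24 ± 0.07, adjusted p = 0.0149), and Pde12, which removes poly(A) tails (0.19 ± 0.07, adjusted p = 0.0494). Angel2 was at 0.13 and not called, but was called with the block (adjusted p = 0.0361) and without Sf3b1 +/+ replicate 1 (adjusted p = 0.0374). Pde12 kept its call without Sf3b1 +/+ replicate 1 and lost it without any other library (adjusted p up to 0.145), and Lrpprc lost it without Sf3b1 +/+ replicate 2 or 3 (adjusted p = 0.0565 and 0.0575). The number called on this list was 1 without Sf3b1 +/+ replicate 2 or 3 and 5 without Sf3b1 +/+ replicate 1.

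Regulators of mitochondrial biogenesis had 2 of 8 tested genes higher and 1 lower. Gabpb1, a subunit of nuclear respiratory factor 2, was higher (log2 fold change 0.46), as was the coactivator Pprc1 (0.32), and the receptor Esrra was lower (-0.30), a call lost without Sf3b1 +/+ replicate 2 (adjusted p = 0.0516). Gabpa was at 0.16 and was called without Sf3b1 +/+ replicate 1 (edgeR adjusted p = 0.0435) and with the block (adjusted p = 0.0148), under which the list had 5 calls, and it had 6 without Sf3b1 +/+ replicate 1. On a list of nuclear genes taken to go with mitochondrial mass, 3 of 22 tested genes were higher and 4 lower. The median log2 fold change of this list was 0.01, and 12 were called with the block. Mitochondrial mass itself was not measured, and the changes of the named genes went both ways. Vdac1, the channel of the outer membrane, was lower (-1.35 ± 0.09, SE, edgeR adjusted p = 5.78e-06), and so was Idh2, of the citric acid cycle (-0.68). Tomm40, the import channel, and the protease Lonp1 were higher (0.78 and 0.40).

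The nuclear-encoded partners of the mitochondrial subunits moved little as groups. For complex I, 5 of 37 tested genes were higher and 7 lower, with a median log2 fold change of -0.04. Ndufv1, which belongs to the NADH-binding module, was lower (log2 fold change -0.42 ± 0.05, SE, edgeR adjusted p = 0.000267), while Ndufc2, Ndufab1 and Ndufa3 were higher (0.69, 0.56 and 0.46). For complex III, 2 of 9 were higher and 1 lower, with Uqcrc2 and Uqcrq at 0.56 and 0.38, Uqcrfs1 at -0.23, and Uqcr11 at -0.18 and called only with the block and without Sf3b1 K700E/+ replicate 3. For complex IV, 1 of 11 was higher, Cox6b1 (0.42), and 2 were lower, Ndufa4 (-0.24) and Cox7a2 (-0.15), with Cox7c at -0.11 and not called. For the ATP synthase, none of 15 was higher and 6 were lower, which is 40% called beside 44.4% of all genes tested. Atp5j2 was at -0.75 ± 0.06 (SE, edgeR adjusted p = 1.59e-05), Atp5e at -0.55, Atp5c1 at -0.21 and Atp5j at -0.19. Calls near the threshold depended on single libraries. That of Cox7a2 was lost without any of the 6 libraries (adjusted p 0.0520 to 0.160), and that of Uqcrfs1 without any except Sf3b1 +/+ replicate 3 (0.0522 to 0.140). That of Atp5j was lost without any Sf3b1 K700E/+ library or Sf3b1 +/+ replicate 2 (0.0545 to 0.105), and that of Ndufa4 without Sf3b1 K700E/+ replicate 2 or 3 (0.0580 and 0.0542). In all, 7 genes of complex I were called without Sf3b1 +/+ replicate 2. Complex IV had 1 call without Sf3b1 K700E/+ replicate 2 or 3, and the ATP synthase had 3 without Sf3b1 K700E/+ replicate 1 or 2 or without Sf3b1 +/+ replicate 2.

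**Figure D5:**
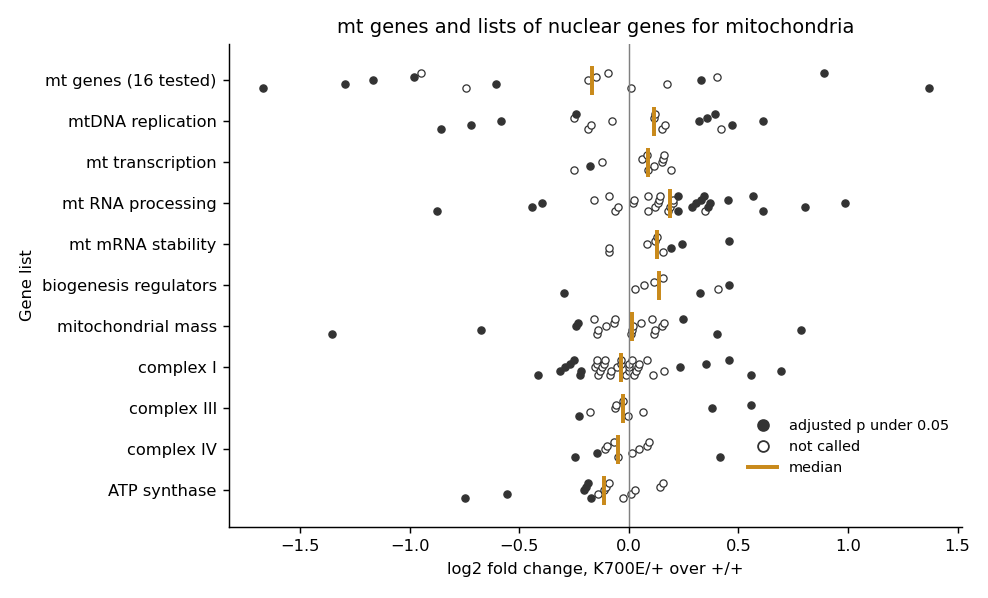
Log2 fold changes, Sf3b1 K700E/+ over Sf3b1 +/+, of the 16 tested mitochondrial genes and of the genes on 10 lists of nuclear genes, with 1 point per gene (filled when called) and a bar at the median. The mitochondrial genes spread from -1.67 to 1.37, and the medians of the nuclear lists lie between -0.11 (ATP synthase) and 0.19 (mitochondrial RNA processing).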

How the data were processed

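The authors prepared poly(A)-selected RNA libraries with a stranded kit, aligned the reads with STAR 2.7.9 on GRCm39, and deposited unnormalized counts for each gene in each library. The annotation release and the strand setting are not given in the sources used here. The authors' own comparisons used DESeq2 1.30.1. Of the event table, which the authors deposited with packed read numbers and a PSI fraction per library, only gene names, place and repeat mark were read.

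The genotypes were compared on these counts with edgeR 4.0.16 under R 4.3.3 (filterByExpr by genotype, TMM, quasi-likelihood F test, Benjamini-Hochberg adjustment over all 12547 tested genes). A DEG needs an adjusted p under 0.05 and an absolute log2 fold change over 1. The SE is the log2 fold change divided by the square root of F. A further fit used the summed counts of the 13 protein-coding mitochondrial genes as library size. Ratios used counts plus 0.5, and single values were compared with exact permutation tests over libraries (scipy). The main edgeR fit was tested on simulated counts of a single fixed dispersion, and the other steps were not. Alternatives changed the normalization, the low-count filter, the test (DESeq2 1.42.0), the genes that set the library size, the reference of ratios and the libraries.

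Gene order, strand, length and transcript sequences come from GENCODE M21 (GRCm38), another build than that of the files, so no coordinate is given. Total counts were 38785471 to 50077827 per library. Library pairs within a genotype differed by a chi-square per degree of freedom of 8.07 to 35.8, so none is a copy. Deviations from the genotype means correlated between libraries of the same number (0.63, 0.48 and 0.48 over 8771 genes of at least 5 CPM), and the numbers, which come from the labels, were taken to pair the libraries. The replicate block was an alternative.

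All protein-coding and ribosomal RNA members are named, transfer RNAs when tested, the 4 genes of lowest adjusted p of each nuclear list, and pseudogenes with at least 10 counts. The members and lists were chosen with earlier results of these data known.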

Additional observations from a re-analysis of the deposited data

How the results depend on the processing

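Over 13 alternatives, 7 to 10 mitochondrial genes were called (8 as reported), 2 to 3 higher and 4 to 7 lower, and none of the 8 changed direction. Over all genes, 4414 to 7134 were called under these alternatives (5569 as reported). Calls gained or lost are therefore not read as particular to the mitochondrial genes. mt-Tq was not tested under the low-count filter of the study. The replicate block gave 10 calls, adding mt-Atp6 and mt-Tp, and changed the call of no other mitochondrial gene. It also added calls for Angel2, Gabpa, Mterf3 and Uqcr11 among the nuclear genes named. Without a low-count filter mt-Atp6 was called (-0.93, adjusted p = 0.0320). Leaving out single libraries, mt-Co1 lay between -0.093 and 0.11 and mt-Nd6 between -0.19 and 0.0093, so the sign of these uncalled genes is not settled. In the same way mt-Nd1 lay between -0.26 and -0.08, mt-Co2 between -0.25 and -0.05, mt-Co3 between 0.035 and 0.41, mt-Atp6 between -1.31 and -0.67, mt-Tt between 0.09 and 0.65 and mt-Tp between -0.96 and -0.42. The ratio of mt-Co2 to mt-Nd1 (-0.06) became 0.40 with the protein-coding sum as reference and lay between -0.12 and 0.034 leaving out libraries. That of mt-Nd6 (0.05) became -0.11 with mt-Co1 as reference and lay between -0.053 and 0.12. The cause was not tested. The difference in the share of all counts lay between -0.72 and -0.37 percentage points, the last without mt-Nd2, an alternative chosen after seeing the data. On the scale of the protein-coding sum 10 to 12 of the 16 genes were called (11 as reported), beside 72.4% of all genes. Nuclear lists had 44 to 88 calls in all (63 as reported), beside the same 4414 to 7134 over all genes. With 3 libraries per genotype an exact test cannot go below 0.1, and members with at most 15 counts in every library were not tested.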

Other observations

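The deviations of the mitochondrial genes did not follow the pairing seen over all genes. Over the 9 mitochondrial genes that reached a mean level of 5 CPM, the deviation from the genotype mean correlated at -0.46, -0.05 and -0.64 between libraries of the same number, whereas the values over all genes were 0.63, 0.48 and 0.48. The highest value, 0.60, was between Sf3b1 K700E/+ replicate 1 and Sf3b1 +/+ replicate 3. These are descriptions over few genes that share a genome, and no test was run.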
